A study of Mus musculus with 8 samples.

Results

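Amino acid and neurotransmitter transporters were taken as the genes whose symbol falls in 7 solute carrier families, Slc1, Slc3, Slc6, Slc7, Slc36, Slc38 and Slc43. They were 58 of the 18193 genes that a probe set with 1 symbol named on the array, read by 118 probe sets. Genes entered by symbol, but the set was chosen with earlier results of these data known. The data are 8 Affymetrix arrays of mouse RNA, 4 labelled Bmi1 and 4 labelled control, numbered 1 to 4 in each group and described in the series as 4 independent experiments. Arrays labelled Bmi1 came from hepatoblasts transduced with Bmi1, and control arrays from hepatoblasts transduced with EGFP, a green fluorescent protein. Both groups share the Ink4a-Arf-null genotype, so the cells lack a locus that Bmi1 is best known to repress. The cells were Dlk-positive hepatoblasts, the precursors of hepatocytes and bile duct cells, from embryonic livers at day 14.5. After a magnetic bead sort they were transduced at 12 to 18 h and cultured in hepatocyte growth factor (50 ng/ml) plus epidermal growth factor (20 ng/ml). Transduced cells were purified by flow cytometry on culture day 28, and RNA equal to 10000 cells was amplified in 2 cycles.

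Amino acids cross membranes on carriers that differ in what they bind and in what drives them. Slc1 and Slc6 carriers couple uptake to sodium, and the Slc6 family includes the transporters that clear GABA, glycine, noradrenaline, dopamine and serotonin from synapses. Many Slc7 proteins are light chains that reach the membrane only with a heavy chain of the Slc3 family. Slc38 carriers move glutamine, alanine and other neutral amino acids, Slc36 includes proton-coupled carriers, and Slc43 holds transporters of large neutral amino acids. In liver these proteins feed gluconeogenesis, the urea cycle, and the synthesis of glutathione and of plasma proteins.

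Signal of Bmi1 itself went against the labels. It averaged 279 ± 60.01 on arrays labelled Bmi1 and 518 ± 218 on control arrays (SD, n = 4 each), and the Bmi1 array of each of the 4 pairs was the lower one. The sources used here do not state whether its probes read the introduced sequence, and every direction below follows the labels. Dlk1, the sort marker, averaged 2242 ± 759 on arrays labelled Bmi1 and 1324 ± 685 on control arrays. The summed signal of 7 hepatocyte markers ran from 15117 to 25146 on arrays labelled Bmi1 and from 18724 to 27824 on control arrays, lower in 3 of 4 pairs. Without Afp, the brightest, the sum of the other 6 was lower in 4 of 4 pairs. All 7 differences were below 0, though 0 of the 7 passed in either fit described below. Control 1 stood apart, with a Gapdh 3' over 5' ratio of 3.10 against 1.65 to 1.96 on the other 7 arrays. Replicates 1 and 2 also read higher than replicates 3 and 4 for the BioC hybridisation control, at 198 to 274 against 97.0 to 119.

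Of the 58 genes, 31 passed the level filter and were tested, and 30 of these were above background on all 8 arrays. Background on an array was set by its 27 probe sets for bacterial transcripts, at their 95th percentile, which lay at 4.09 to 9.97. The exception was Slc43a1, which read 3.26 on control 2. In the plot of all members, probe sets differ in how strongly they bind, so signals are compared between groups and never between genes.

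**Figure D1:**
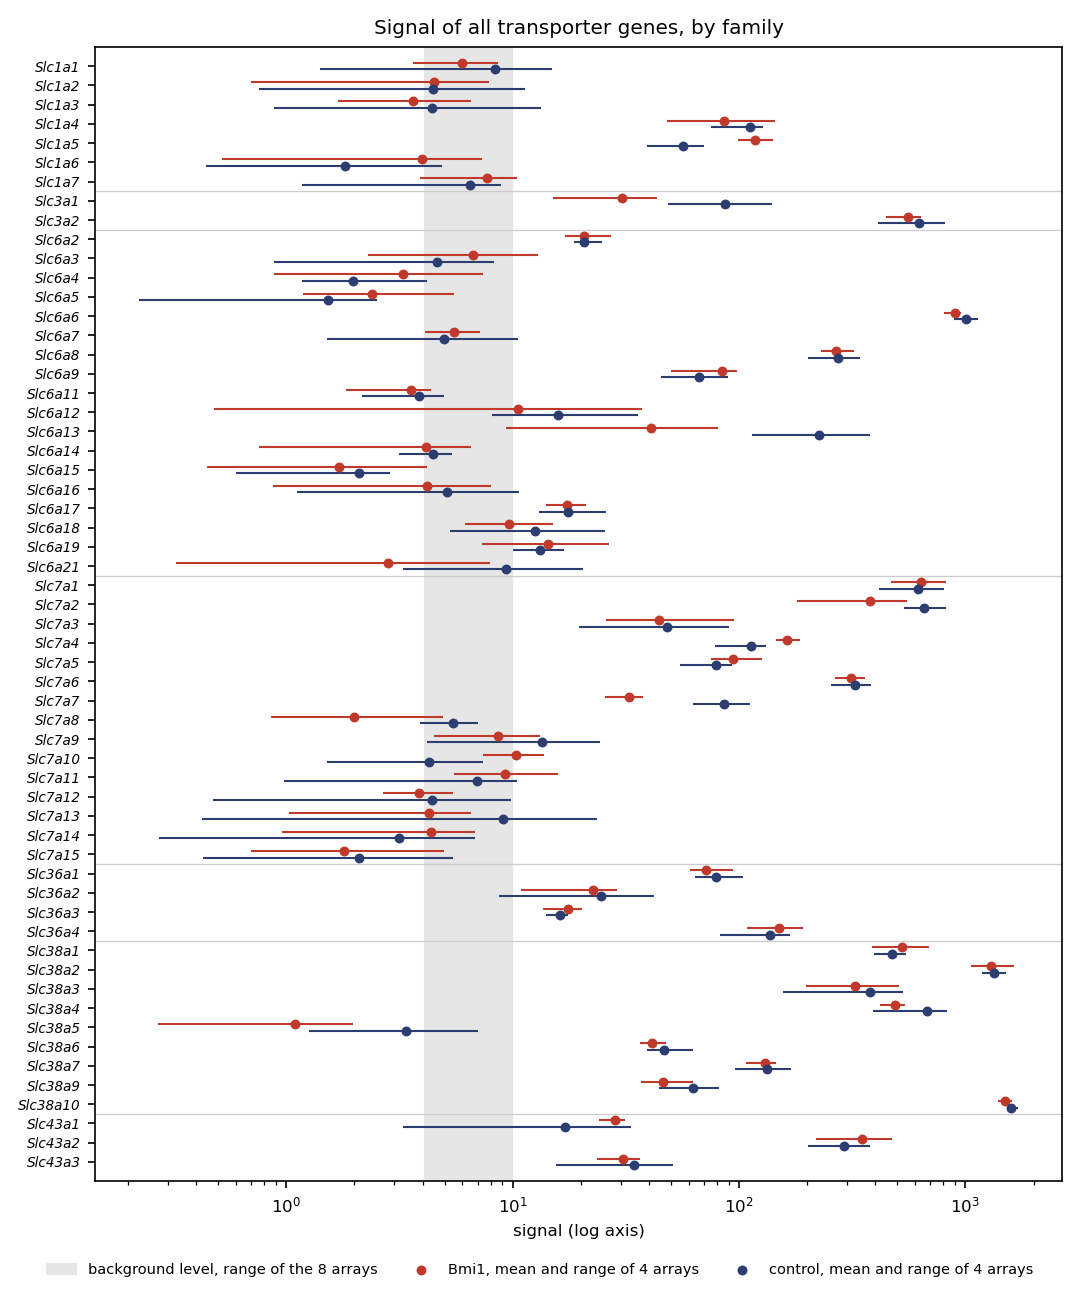
Signal of the 58 transporter genes on a log axis, by family, with the mean (point) and range (line) of the 4 arrays labelled Bmi1 in red above the 4 control arrays in blue. The grey band is the background level over the 8 arrays, 4.09 to 9.97. Among tested genes, the ranges of Slc6a13, Slc7a7 and Slc3a1 lie lower on the arrays labelled Bmi1 and those of Slc1a5 and Slc7a4 higher, with no overlap. The ranges of Slc7a10, near background and untested, almost touch in these signals, which are not centred.

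With the replicate number as a block, 4 members changed in limma (Benjamini-Hochberg adjusted p under 0.05 over all 10916 tested genes). The GABA and taurine transporter gene Slc6a13, the cationic amino acid light chain gene Slc7a7 and the heavy chain gene Slc3a1 fell, and the glutamine carrier gene Slc1a5 rose. That is 12.9% of the 31 tested members, where 3.33% of all tested genes passed, 1.36% higher and 1.96% lower. Without the block 0 members passed in limma, against 0.165% of all tested genes (0.11% higher and 0.055% lower). At an unadjusted p under 0.05 that fit had 6 members, Slc1a5, Slc3a1, Slc6a13, Slc7a2, Slc7a4 and Slc7a7, where 7.81% of all tested genes reached it. In 5 tested members the groups of 4 arrays did not overlap, the 4 above and Slc7a4. These 2 higher and 3 lower members were 16.1% of those tested, against 5.33% of all tested genes (2.42% higher and 2.91% lower).

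The proximal promoters of the 3 genes that fell are shown, as the regulatory sequence nearest to them. Each is the 250 bases before the annotated start, or before the most upstream of several, from RefSeq on GRCm38.p6. Sequences run 5′ to 3′ on the gene's strand, with motif matches in capitals. For Slc1a5, which rose, the source used here held no promoter. Slc6a13 lies at chr6:121300038-121300287 (plus strand), Slc7a7 at chr14:54417945-54418194 (minus strand) and Slc3a1 at chr17:85028097-85028346 (plus strand).
Slc6a13: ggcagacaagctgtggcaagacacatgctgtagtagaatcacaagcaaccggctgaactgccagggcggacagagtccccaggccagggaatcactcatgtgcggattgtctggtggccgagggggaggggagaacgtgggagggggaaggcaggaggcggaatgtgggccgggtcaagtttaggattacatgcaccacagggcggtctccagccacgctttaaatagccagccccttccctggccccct
Slc7a7: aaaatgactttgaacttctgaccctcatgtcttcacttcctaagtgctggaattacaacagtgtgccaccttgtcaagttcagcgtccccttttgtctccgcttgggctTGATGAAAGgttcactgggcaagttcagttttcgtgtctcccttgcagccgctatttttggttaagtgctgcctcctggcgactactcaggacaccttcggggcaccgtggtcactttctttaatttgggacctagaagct
Slc3a1: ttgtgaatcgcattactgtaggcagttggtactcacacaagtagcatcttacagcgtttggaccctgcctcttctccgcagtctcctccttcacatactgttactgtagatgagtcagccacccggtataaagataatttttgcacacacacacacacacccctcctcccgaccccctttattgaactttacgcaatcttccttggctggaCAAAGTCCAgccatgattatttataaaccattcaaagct
Motifs were searched on both strands. CAAAGTCCA, a motif of the liver factor HNF4, occurred in the Slc3a1 promoter 39 to 31 bases before the start, and in 0.384% of the 32851 promoters of the table. TGATGNAAN, the composite site of C/EBP and ATF4 factors, occurred in the Slc7a7 promoter as TGATGAAAG, 141 to 133 bases before the start, and in 3.44% of all promoters. Another of the 5 annotated Slc7a7 starts had TGATGCAAC 243 to 235 bases before it. The HNF1 motif occurred in 0.371% of all promoters, and the displayed Slc6a13 window held 0 of the 3 motifs. Among the 41 members matched to the table, Slc6a21 and Slc7a11 also held the C/EBP and ATF4 motif, and 0 held the HNF1 motif. A match describes letters only.

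Slc6a13 encodes GAT2, which takes up GABA, taurine and betaine and is known from hepatocytes, kidney and the brain's coverings. Its signal was 23.3, 80.5, 9.38 and 50.3 on arrays labelled Bmi1 1 to 4, against 178, 379, 114 and 233 on control arrays 1 to 4. Each array labelled Bmi1 was below every control array, and in both groups array 2 was the highest and array 3 the lowest. The means were 40.9 ± 31.4 on arrays labelled Bmi1 and 226 ± 113 on control arrays (SD, n = 4 each), a log2 difference of -2.63, or 6.18-fold lower. The SE was 0.57 with a limma adjusted p of 0.144 without the block, and 0.21 with an adjusted p of 0.00527 with it. The pair differences were -2.84, -2.27, -3.24 and -2.16. Without the first pair, which holds control 1, the difference was -2.56 (adjusted p = 0.0182 with the block), and it passed with the block without each of the other pairs too, at 0.00923 to 0.0238. On this array Slc6a13 has 1 probe set.

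The gene beside Slc6a13 on chromosome 6 is Slc6a12, which encodes the betaine and GABA transporter BGT1. It lay under the level filter and was not tested. It read 3.29, 37.3, 0.477 and 1.09 on arrays labelled Bmi1 1 to 4, against 11.4, 35.8, 8.19 and 8.08 on the control arrays. It was above background on 1 array labelled Bmi1 and on 4 control arrays. Usp18, the neighbour on the other side, differed by -0.19 (adjusted p = 0.619 with the block).

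**Figure D2:**
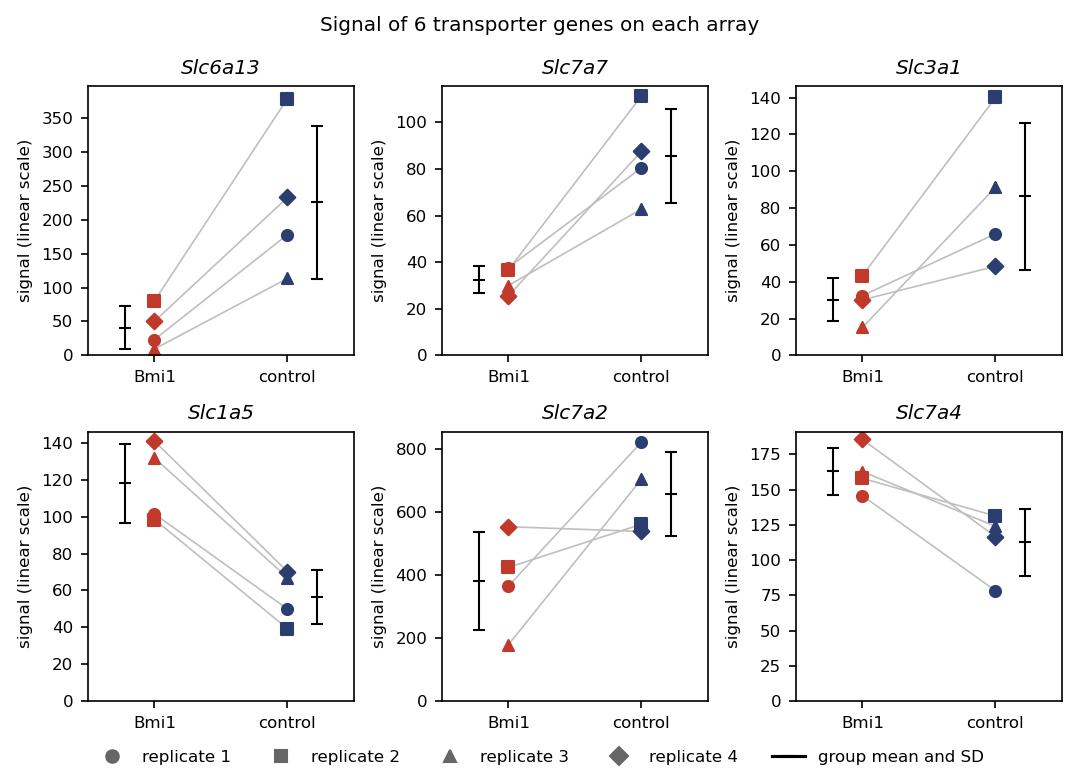
Signal of 6 transporter genes on each array, linear scale from 0, arrays labelled Bmi1 in red at the left and control arrays in blue at the right of each panel. Marker shapes give the replicate number, grey lines join arrays of 1 number, and black bars give the mean and SD of 4 arrays. Slc6a13, Slc7a7 and Slc3a1 are lower on all 4 arrays labelled Bmi1, Slc1a5 and Slc7a4 are higher on all 4, and Slc7a2 overlaps between the groups.

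Slc7a7 encodes y+LAT1, a light chain that exports arginine and lysine in exchange for neutral amino acids and sodium, and its human gene is mutated in lysinuric protein intolerance. It read 37.7, 36.7, 30.0 and 25.6 on arrays labelled Bmi1 1 to 4, and 80.5, 111, 62.8 and 87.5 on control arrays 1 to 4. All 4 arrays labelled Bmi1 were below all 4 control arrays, and they lay closer together. The means were 32.5 ± 5.74 on arrays labelled Bmi1 and 85.5 ± 20.1 on control arrays (SD, n = 4 each), a log2 difference of -1.36, or 2.57-fold lower (SE 0.24, limma adjusted p = 0.0826). With the block the SE was 0.19 and the adjusted p 0.0145. Leaving out the second pair raised it to 0.0535, and without the other pairs it was 0.0362 to 0.04996. Its second probe set, whose _s_at name marks probes shared by several transcripts, averaged 12.6 ± 5.41 on arrays labelled Bmi1 and 18.5 ± 6.94 on control arrays. That probe set was lower in 3 of 4 pairs, with an adjusted p of 0.462 with the block when every probe set was tested.

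Slc3a1 encodes rBAT, the heavy chain that pairs with the Slc7a9 product to take up cystine and basic amino acids, and both human genes are mutated in cystinuria. It read 32.4, 43.3, 15.1 and 30.2 on arrays labelled Bmi1 1 to 4, against 66.0, 140.1, 91.3 and 48.4 on control arrays 1 to 4. The highest array labelled Bmi1 was just below the lowest control array. The means were 30.3 ± 11.6 on arrays labelled Bmi1 and 86.4 ± 39.9 on control arrays (SD, n = 4 each), a log2 difference of -1.45, or 2.73-fold lower (SE 0.39, limma adjusted p = 0.241). With the block the SE was 0.29 and the adjusted p 0.0420. The call was lost without the first pair (0.0799), the second (0.146) or the third (0.118), and kept without the fourth (0.0440). Its partner gene Slc7a9 lay under the level filter, with 8.598 ± 3.68 on arrays labelled Bmi1 and 13.5 ± 8.49 on control arrays. The other heavy chain gene, Slc3a2, whose product CD98 carries most other light chains, averaged 560 ± 93.5 on arrays labelled Bmi1 and 624 ± 165 on control arrays, a log2 difference of -0.20 (95% interval -0.68 to 0.27).

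Slc1a5 encodes ASCT2, a sodium-dependent exchanger of glutamine, alanine, serine and cysteine that proliferating cells use for glutamine uptake. It read 102, 98.5, 132 and 141 on arrays labelled Bmi1 1 to 4, against 49.9, 39.3, 67.0 and 70.3 on control arrays 1 to 4. Every array labelled Bmi1 was above every control array, and the 4 pairs differed by similar amounts, from 0.85 to 1.16 on the log2 scale. The means were 118 ± 21.3 on arrays labelled Bmi1 and 56.6 ± 14.6 on control arrays (SD, n = 4 each), a log2 difference of 0.96, or 1.94-fold higher (SE 0.21, limma adjusted p = 0.153). With the block the SE was 0.15 and the adjusted p 0.0182. It was 0.0444 without the first pair, and 0.0651 to 0.0654 without any other pair, so the call was lost there. Its second probe set was above background on 3 of 8 arrays. In the same family Slc1a4, which encodes the related exchanger ASCT1, averaged 86.0 ± 43.1 on arrays labelled Bmi1 and 112 ± 25.0 on control arrays (-0.53, adjusted p = 0.843 and 0.295 with the block). Its other probe sets differed by 0.07 and -0.29.

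Slc7a4, a member of the cationic amino acid transporter branch with no settled transport activity, was the other tested gene with groups that did not overlap. It read 146, 158, 163 and 186 on arrays labelled Bmi1 1 to 4, and 78.3, 131, 124 and 117 on control arrays 1 to 4. The lowest array labelled Bmi1 was above the highest control array, control 2. The log2 difference was 0.47 (95% interval 0.06 to 0.88), and it passed in neither fit (limma adjusted p = 0.548, and 0.154 with the block). A second probe set averaged 97.3 ± 19.0 on arrays labelled Bmi1 and 58.0 ± 9.47 on control arrays, higher in 4 of 4 pairs, and the third differed by 0.10.

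Slc7a2 encodes CAT2, the carrier of arginine, lysine and ornithine known as the main one of liver. It was chosen after its values were seen. It read 365, 424, 179 and 552 on arrays labelled Bmi1 1 to 4, against 821, 560, 703 and 538 on control arrays 1 to 4. At this probe set, the brightest, the groups overlapped, since Bmi1 4 was above control 4. The log2 difference was -0.94 (95% interval -1.68 to -0.20), with a limma adjusted p of 0.442, and 0.148 with the block. All 4 of its probe sets had a negative difference, from -0.79 to -1.15, and each one besides the brightest was lower in 4 of 4 pairs. The smallest limma adjusted p among them was 0.0706, with the block when every probe set was tested. Slc7a1, which encodes the widely expressed cationic carrier CAT1, averaged 634 ± 146 on arrays labelled Bmi1 and 615 ± 169 on control arrays, a log2 difference of -0.02 (95% interval -0.59 to 0.56) whose sign turned under other centring.

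**Figure D3:**
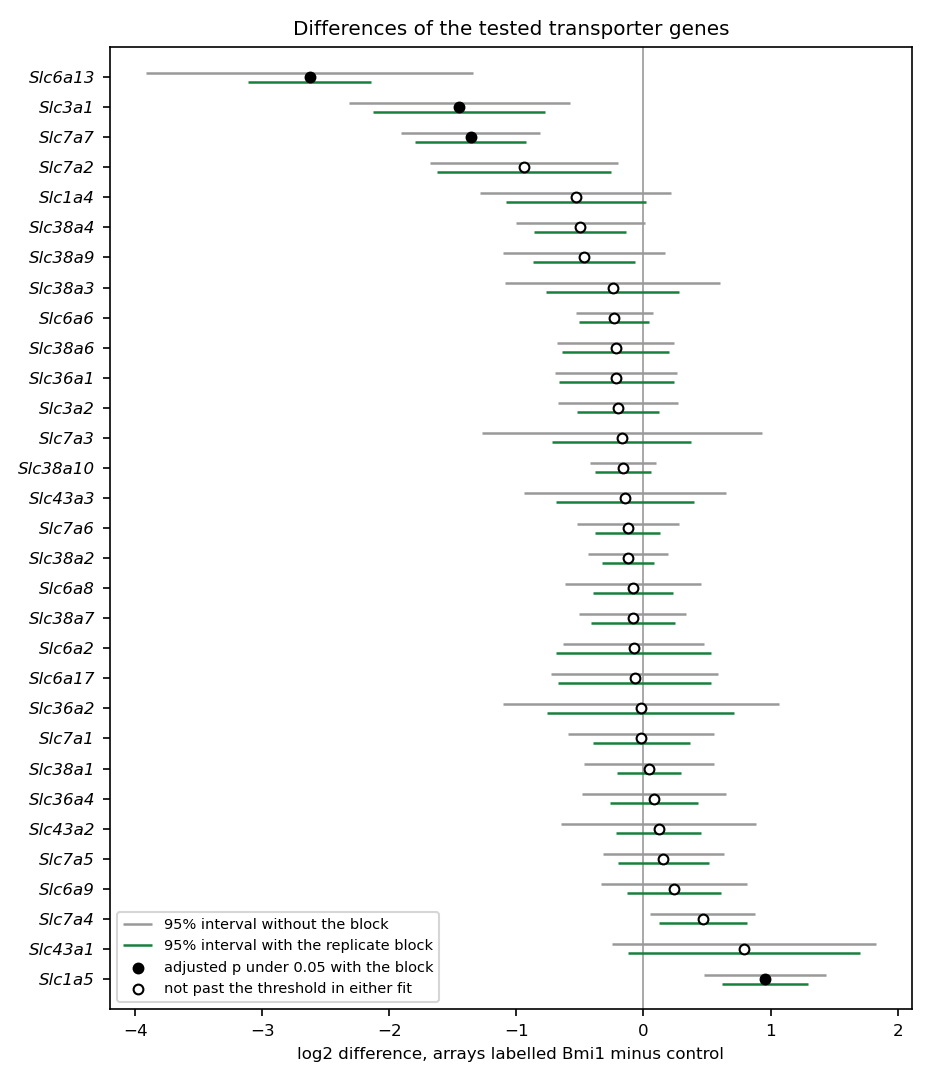
Log2 difference, arrays labelled Bmi1 minus control, for the 31 tested transporter genes, with 95% intervals without the block (grey) and with it (green). Filled points mark the 4 genes with an adjusted p under 0.05 with the block, Slc6a13, Slc3a1 and Slc7a7 below 0 and Slc1a5 above 0.

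Across the 31 tested members, 24 had a log2 difference within 0.5 of 0. Of all 31, 8 were above 0 and 23 below, so 74.2% were below 0, against 54.3% of all tested genes. The median was -0.12 for members and -0.03 for all tested genes. These counts depended on the centring: with arrays centred on all probe sets 16 members were above 0 and 15 below, with a median of 0.01 beside 0.11 for all tested genes. Without centring, or with quantile normalisation, 11 were above 0 and 20 below.

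By family, glutamine and neutral amino acid carriers of Slc38 held 8 tested members, of which 0 passed in either limma fit, 0 had an unadjusted p under 0.05 without the block, and 7 were below 0. Slc38a4, a carrier of neutral amino acids known from liver and placenta, averaged 487 ± 62.1 on arrays labelled Bmi1 and 679 ± 204 on control arrays, a log2 difference of -0.50 (adjusted p = 0.149 with the block). Control 1 was the lowest array at this probe set, and without the first pair the adjusted p was 0.0362 with the block. Its other probe set differed by 0.07. Slc38a10, for which glutamine and aspartate transport has been described, averaged 1498 ± 99.2 on arrays labelled Bmi1 and 1592 ± 85.9 on control arrays (-0.16, 95% interval -0.42 to 0.10). The mean of its probe sets turned that sign.

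Among the other Slc6 genes, the taurine transporter gene Slc6a6 averaged 899 ± 72.9 on arrays labelled Bmi1 and 1005 ± 110 on control arrays (-0.23, 95% interval -0.53 to 0.07, sign turned in the mean of its probe sets). The Slc36 carrier genes Slc36a1 and Slc36a4 differed by -0.22 (95% interval -0.70 to 0.27) and 0.08 (-0.49 to 0.65). Slc43a1, which encodes the large neutral amino acid transporter LAT3, averaged 28.4 ± 3.46 on arrays labelled Bmi1 and 17.1 ± 12.9 on control arrays (0.79, adjusted p = 0.349 with the block). That difference rested on control 2, which was below background, and was 0.36 without it and 0.32 with the block without the second pair. Slc43a2, which encodes LAT4, differed by 0.12 (95% interval -0.65 to 0.89).

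**Figure D4:**
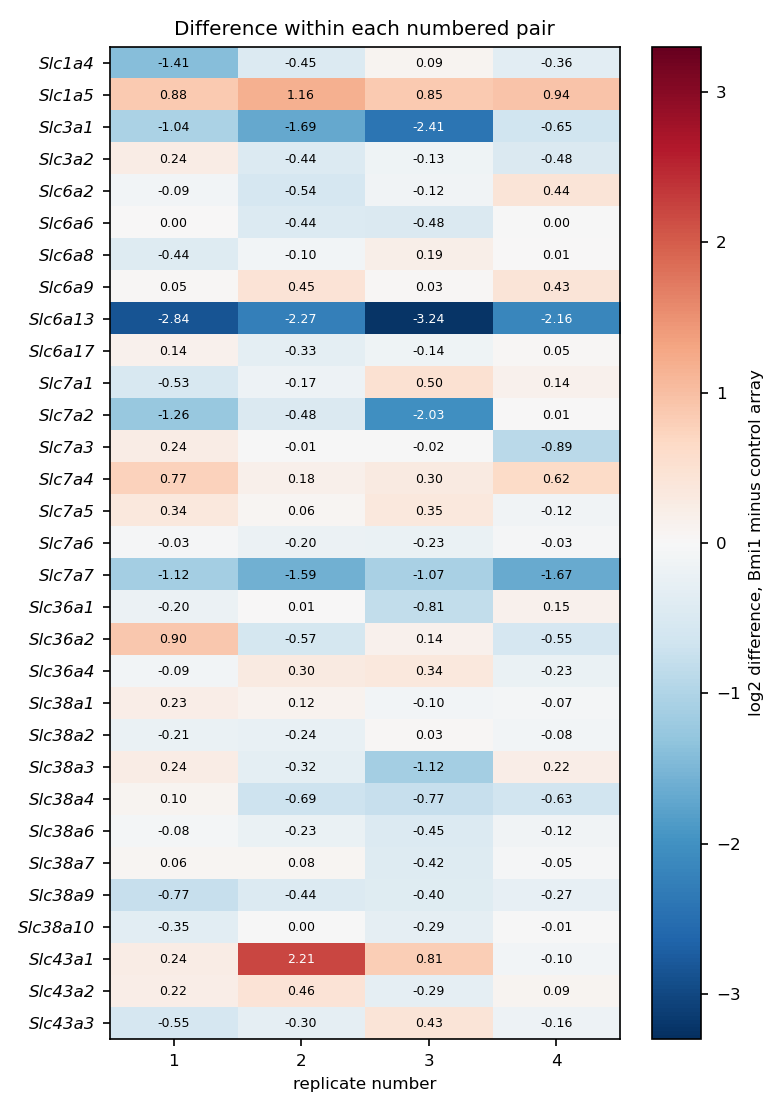
Log2 difference of each tested transporter gene within each numbered pair, array labelled Bmi1 minus control array. Slc6a13 is below -2 in all 4 pairs, and Slc1a5, Slc6a9 and Slc7a4 are above 0 in every pair. Among the genes below 0 in every pair, Slc38a10 is so narrowly, at -0.0039 in pair 2 and -0.011 in pair 4.

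The 27 members under the level filter include carriers known from neurons, kidney and gut, and their signals ran from 0.224 to 37.3. Of them 4 were above background on 0 arrays: the serotonin transporter gene Slc6a4, the glycine transporter gene Slc6a5, Slc6a15 and Slc7a15. Slc6a19 and Slc36a3 were above background on all 8, and the other 21 on 1 to 7 arrays. Slc7a10, which encodes the small neutral amino acid exchanger Asc-1, was above background on 4 arrays labelled Bmi1 and 1 control array, at 10.4 ± 2.59 on arrays labelled Bmi1 and 4.29 ± 2.43 on control arrays. Its signals before centring ran from 7.43 to 13.7 on arrays labelled Bmi1 and from 1.51 to 7.39 on control arrays. That gap is narrow and near background, and Slc7a10 is not among the members counted as not overlapping. Slc7a11, which encodes the cystine and glutamate exchanger xCT, averaged 9.27 ± 4.57 on arrays labelled Bmi1 and 6.95 ± 4.38 on control arrays. These members were not tested.

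Enzymes of GABA, taurine and betaine, which the Slc6a13 product takes up, and of creatine were read beside it. Of 12 tested genes of GABA, taurine, betaine and creatine metabolism, 4 fell and 0 rose with the block, and 0 passed without it. Over all tested genes 1.96% fell and 1.36% rose with the block, and 0.165% passed without it. Csad, which makes hypotaurine, averaged 158 ± 30.7 on arrays labelled Bmi1 and 297 ± 91.9 on control arrays (-0.93, limma adjusted p = 0.301, and 0.0164 under the block). Baat, which joins bile acids to taurine or glycine, averaged 27.2 ± 20.4 on arrays labelled Bmi1 and 67.5 ± 30.1 on control arrays (-1.44, 0.568, and 0.0196 under the block). Cdo1, which starts taurine synthesis from cysteine, and Bhmt, which uses betaine, fell by 1.78 and 2.58 on the log2 scale (0.0391 and 0.0109 with the block, 0.513 and 0.327 without). The list's median was -0.18, with 5 members above 0 and 7 below. Of the hepatocyte markers, Tat, a tyrosine-degrading enzyme, averaged 64.8 ± 73.6 on arrays labelled Bmi1 and 172 ± 83.5 on control arrays (-2.09, adjusted p = 0.0967 with the block), lower in 4 of 4 pairs. Cps1, the first enzyme of the urea cycle, averaged 1107 ± 694 on arrays labelled Bmi1 and 2542 ± 381 on control arrays (-1.56, 0.0778 with the block), also lower in 4 of 4 pairs. Tat and Cps1 were chosen after their values were seen. Alb, Afp, Ttr, Hnf4a and Apoa1 differed by -0.16, -0.14, -0.15, -0.25 and -0.51, and 0 of the 7 hepatocyte markers passed in either fit. The part of these markers in the falls of Slc6a13, Cdo1 and Bhmt was not tested.

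Among 13 tested carriers of other families, 1 rose and 1 fell with the block, where 1.36% of all tested genes rose and 1.96% fell. Slc29a4, a monoamine and nucleoside carrier, rose in both fits, where 0.11% of all tested genes rose without the block. It averaged 312 ± 44.1 on arrays labelled Bmi1 and 131 ± 20.6 on control arrays (1.16, limma adjusted p = 0.0406, and 0.0133 with the block). Slc25a15, the mitochondrial ornithine carrier of the urea cycle, fell by 0.85 with the block (adjusted p = 0.0112, and 0.479 without). Of 8 tested partners of transporters, Cltrn, which brings Slc6 carriers to the membrane in kidney, fell by 1.37 with the block (0.0165, and 0.857 without), and 0 rose. Targets and sensors of amino acid supply were called at a share near the 3.33% of all tested genes with the block, 1 of 26 and 1 of 23. Of 26 stress response genes 20 were below 0, and Asns, the asparagine synthetase, fell by 0.48 with the block (0.0347, and 0.748 without). Of 23 genes of lysosomal sensing and mTORC1, 1 rose with the block, the small GTPase gene Rragd (0.54, 0.0442, and 0.887 without). Of 12 enzymes of glutamine, glutamate and glutathione, 0 passed in either fit. Oplah had the smallest p there without the block (0.73, adjusted p = 0.388, and 0.0779 with the block), and 10 of the 12 were below 0. With the block Gsr (-0.58, 0.0606) and Glul (-0.42, 0.0630), chosen after their values were seen, had a smaller adjusted p than Oplah.

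Markers of other cell types are given beside these results. The summed signal of 9 fibroblast or stellate cell markers ran from 1029 to 4802 on arrays labelled Bmi1 and from 1794 to 12121 on control arrays, lower in 4 of 4 pairs and highest on control 1. The 6 mesothelial markers summed to 52.5 to 213 on arrays labelled Bmi1 and 141 to 658 on control arrays, also lower in 4 of 4 pairs. Macrophages are known to use Slc7a7. Their 6 markers summed to 185 to 518 on arrays labelled Bmi1 and 269 to 704 on control arrays, lower in 3 of 4 pairs. Of these markers 4 were above background on every array, and 0 were at background on every array. Without Csf1r, the brightest, the other 5 summed to 47.0 to 104 on arrays labelled Bmi1 and 76.2 to 191 on control arrays. That sum was also lower in 3 of 4 pairs. The 4 biliary markers summed to 2483 to 3085 on arrays labelled Bmi1 and 1441 to 2457 on control arrays, higher in 4 of 4 pairs. Without Krt7, the brightest, the biliary sum was also higher in 4 of 4 pairs. The 7 endothelial markers summed to 221 to 340 on arrays labelled Bmi1 and 109.6 to 229 on control arrays, higher in 4 of 4 pairs. However, Egfl7 carried that sum. Without it the other 6 summed to 16.7 to 28.8 on arrays labelled Bmi1 and 25.3 to 61.03 on control arrays, lower in 4 of 4 pairs, with Pecam1, Tek and Tie1 not above background on any array. The 7 neuronal markers summed to 50.01 to 88.9 on arrays labelled Bmi1 and 36.04 to 57.3 on control arrays, and 4 erythroid markers to 13.4 to 17.8 on arrays labelled Bmi1 and 11.1 to 41.1 on control arrays. With the block, Acta2 and Msln of these lists fell (adjusted p = 0.0397 and 0.0483) and Epcam and Egfl7 rose (0.0220 and 0.0205), while 0 of them passed without it (0.778 and 0.681, 0.171 and 0.289). Of all tested genes, 1.96% fell and 1.36% rose with the block. Without Acta2 the fibroblast sum, and without Msln the mesothelial sum, was lower in 3 of 4 pairs. The part of these cell types in the results for Slc6a13, Slc7a7, Slc3a1 and Slc1a5 was not tested. In bulk RNA, fewer cells of a type and less RNA per cell cannot be told apart.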

How the data were processed

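The authors' deposited table holds linear intensities of 45101 probe sets for each of the 8 arrays. The sources used here name no software for them. With 2% of values trimmed from each end, the mean was 100.001 on every array, so the deposited intensities carry a global scaling. Symbols came from the platform annotation, with 34945 probe sets of 1 symbol, 932 of several and 9160 unnamed here.

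A pseudocount of 3.78, the median of all values over 4, was added before taking log2, which understates the folds of dim genes. Each array was centred on the median of its tested genes, and each gene was read by its brightest probe set. A filter at the 40th percentile of mean level left 10916 of 18193 genes. The test was two-sided and used lmFit and eBayes (trend on intensity) from limma 3.58.1, run in R 4.3.3, Benjamini-Hochberg adjusted over all tested genes. The model was tested on simulated data. The members, gene lists, tests and other settings were chosen with earlier results of these data known. Named members were the called and non-overlapping ones and, per family, those of smallest p and highest level. Of each related list the called genes were named, or the one of smallest p, and Slc7a2 and the members under the level filter were named after their values were seen.

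By correlation, the replicate numbers pair the arrays. Deviations from the group means correlated at 0.489 to 0.682 between arrays of 1 number, and all 8 arrays correlated best with their own number. Arrays of different numbers also correlated, at 0.120 and 0.476 within replicates 1 and 2 and at 0.277 and 0.355 within replicates 3 and 4. Between replicates 1 and 2 and replicates 3 and 4 every correlation was negative, from -0.634 to -0.184. The main model has no block, and the fit with the block is given where it changes a call. The labels give 4 independent experiments, and nothing says whether their cells came from different embryos. For arrays, their number limits the precision.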

Additional observations from a re-analysis of the deposited data

Results flagged for a closer look

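Of 30 groups of 4 arrays examined for the named members, 1 held an array far from the other 3, where chance flags about 1 in 20. For Slc1a4, control 4 was the lowest control array at 74.9, while the other control arrays read 121 to 127. On centred log2 values, the gap of control 4 to the nearest control array was 0.874 of the range, past Dixon's critical value for 4 arrays. Without control 4 the log2 difference of Slc1a4 was -0.73 (limma adjusted p = 0.574), against -0.53 with it.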

How the results depend on the processing

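Over 30 other settings, all chosen with earlier results known, the calls changed with the pairing. The number of members called was 4 with the replicate block, against 0 without it, and 3 with replicates 1 and 2 against 3 and 4 as a block (Slc1a5, Slc6a13 and Slc7a7). It was 1 with quantile normalisation (Slc7a7), and 4 for the replicate block with centring on all probe sets, with no centring or with quantile normalisation. Leaving out single arrays gave 0, and with the block the 4 pairs left out in turn gave 4, 1, 2 and 3. Over all tested genes limma called 18, and 363 with the replicate block, 198 with replicates 1 and 2 against 3 and 4 as a block, 28 without centring, 29 with quantile normalisation, 30 with a larger pseudocount, 37 with array weights and 9 with every probe set tested. It called 0 within replicates 1 and 2, within replicates 3 and 4 and with a 60th percentile filter, where 824, 1012 and 442 genes had an unadjusted p under 0.05. With the replicate block and centring on all probe sets, no centring or quantile normalisation it called 477, 409 and 351. Leaving out single arrays gave 0 to 20, and with the block the pairs left out in turn gave 187, 140, 94 and 207. The median member difference was 0.0094 with centring on all probe sets, with or without the block. Slc6a13 stayed at -2.63 and passed with either block, and at -2.49, -2.55 and -2.55 for the replicate block with the 3 other scalings. Leaving out single arrays gave -3.05 to -2.13 for it, and pairs -2.56, -2.75, -2.42 and -2.78 with the block, while within replicates 1 and 2 and replicates 3 and 4 it was -2.56 and -2.70. Signs turned for 5 named genes that passed nowhere. Slc7a1 was 0.32 within replicates 3 and 4, 0.12 with centring on all probe sets, 0.057 without centring, 0.087 with quantile normalisation (each also with the block), 0.019 with the 60th percentile filter, 0.15 with array weights, 0.00028 with every probe set tested, and -0.21 to 0.15 on leaving out arrays, and 0.15 and 0.035 with the block without pairs 1 and 2. Slc36a4 was -0.030 with array weights, -0.13 to 0.22 on leaving out arrays, and -0.0058 with the block without pair 3. Slc43a2 was -0.10 within replicates 3 and 4 and -0.082 to 0.32 on leaving out arrays. With the mean of probe sets Slc38a10 was 0.035 and Slc6a6 0.033. The marker sums without their brightest gene were added after the data were seen. The causes were not tested.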
